A study of Mus musculus with 40 samples.

Results

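The livers compared came from 12-month-old mice 48 h after partial hepatectomy, the surgical removal of part of the liver, with an ATR inhibitor (ATRi) given at 24 h (3 mice), and from 12-month-old mice at 0 h, before surgery (8 mice). These 11 libraries belong to a series of 40 mouse liver RNA libraries on DNA replication in regenerating liver, its dependence on age and the effect of the inhibitor. The members are all 11119 entries of the deposited tables, and each member's difference is its deposited ATRi 48 h level minus its deposited 0 h level. The 3 untreated 12-month livers at 48 h are set beside them, and their comparison shares the same 0 h mean. The labels name the tissue as liver, the cell type as hepatocytes and the RNA as polyadenylated, give no strain, genotype or sex, and state the inhibitor's dose without a unit. All 8 mouse numbers of the 0 h group recur among the 12-month livers at 72 h, 4 of them with ATRi, and not among the mice sampled at 48 h.

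After partial hepatectomy, normally resting hepatocytes re-enter the cell cycle almost together: cyclin D and the E2F factors start a wave of DNA synthesis, which mitosis follows. ATR is the kinase that responds to single-stranded DNA at stalled replication forks. It acts through the kinase Chk1 to restrain origin firing, to hold back entry into mitosis and to protect forks, and its inhibition is used to study replication stress. Between meals and during regeneration the liver also shifts between making lipid, under SREBP and ChREBP control, and burning it, under control of the nuclear receptor PPARα.

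Each group is represented by 1 deposited mean per gene on a log2 scale that the files call sigma, whose definition is not given in the sources used here. Levels were therefore compared only within a gene, and a difference of 1 stands for 2-fold if sigma is linear in RNA. With 1 mean per group there was no test of these differences. The only single-mouse values used were those of 4 livers of 12-month mice treated with ATRi and taken at 72 h, whose SD per gene had a median of 0.233 and a 95th percentile of 0.706. The deposited mean of these 4 livers exceeded the mean of their single values by a median of 0.088. For Arhgap11a it was 5.10, above all 4 single values (4.82 to 4.99). Single livers and deposited means may therefore not be on the same scale. A gene was called higher or lower when its difference reached 1. The median level was 2.72 in ATRi 48 h livers, 2.70 in untreated 48 h livers and 2.63 at 0 h, and depth is unknown.

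Genes of cell division and DNA replication made up most of the far end of the comparison, while lipid synthesis, bile acid and myeloid genes stood at the other end. Of the 11119 genes, 392 (3.53%) were higher and 186 (1.67%) lower in ATRi 48 h livers than at 0 h. The median difference was -0.02, 47.8% of genes were above 0, and 95% of genes lay between -0.84 and 1.32. The upward side reached further: 136 genes were higher by 2 or more and 58 by 3 or more, against 23 and 3 genes lower by as much. In untreated 48 h livers, against the same 0 h mean, 363 genes (3.26%) were higher and 206 (1.85%) lower, with a median difference of -0.02. When limma was given the spread of the 4 livers at 72 h for every group, it called 657 genes (5.91%) higher and 439 (3.95%) lower at a Benjamini-Hochberg adjusted p under 0.05, among them 354 of the 392 and 132 of the 186. That fit assumes that livers at 0 h and 48 h varied like those at 72 h.

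**Figure D1:**
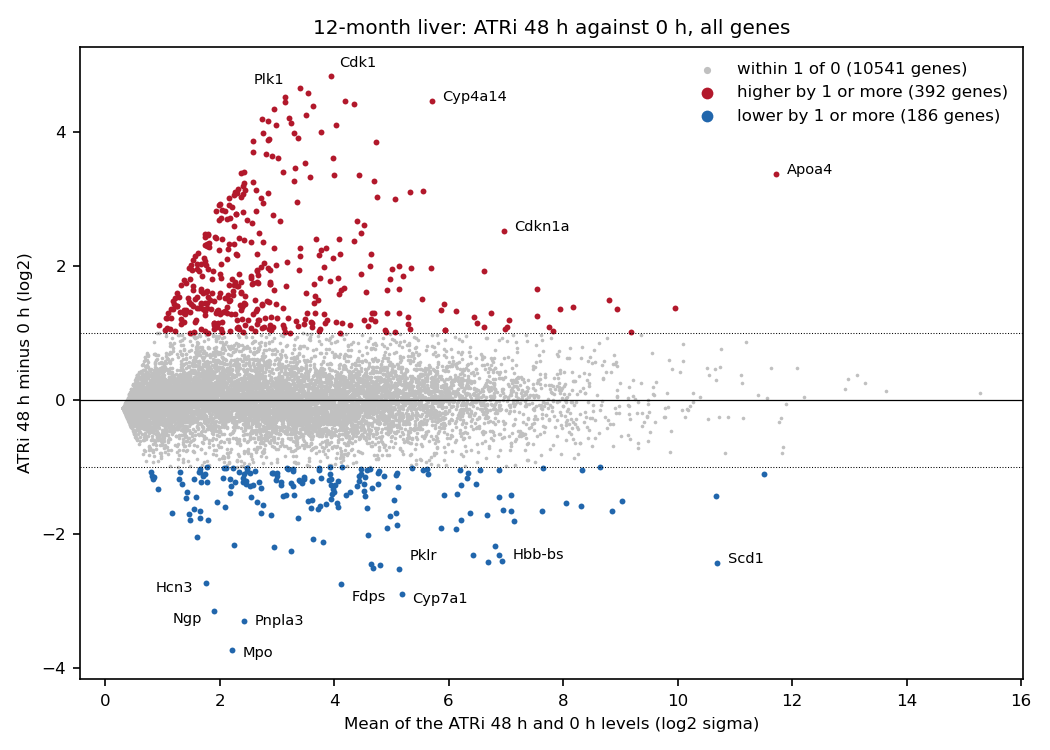
Each point is 1 gene, with the mean of its ATRi 48 h and 0 h levels (log2 sigma) on the x axis and ATRi 48 h minus 0 h (log2) on the y axis. The 392 red points reach up to 4.84 (Cdk1) and the 186 blue points down to -3.74 (Mpo), and dotted lines mark differences of 1 and -1.

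Called genes were not spread evenly over levels. Among the 2048 genes whose 2 levels averaged under 1, 0.0488% were higher and 0.244% lower. The share of higher genes was 7.52% at mean levels of 2 to 3 and 2.28% above 6, where 3.59% were lower. Of the 392 higher genes, 123 had a 0 h level under 1, in a table whose lowest value is 0.381. The lowest value was 0.255 in the ATRi 48 h table, and the 33 genes at the lowest value in both tables had a difference of -0.13.

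The label was checked against cell type markers. Of 15 hepatocyte markers 14 were measured, none at the lowest value, and their summed level was 113.1 in ATRi 48 h livers, 113.8 in untreated 48 h livers and 112.6 at 0 h. Summed levels, here and for other cell types below, add log2 values over genes. They are not total marker RNA, and their ratios are not changes in amount. Albumin (Alb) had levels of 15.33 in ATRi 48 h livers, 15.25 in untreated 48 h livers and 15.23 at 0 h. Single markers moved both ways between ATRi 48 h and 0 h, 8 above 0 and 6 below, from 1.92 (Tat) to -0.84 (Ahsg). The near-equal sums therefore do not mean that each marker was stable. Markers of other liver cells were present too, such as Clec4f of Kupffer cells, at 6.51 in ATRi 48 h livers, 6.43 in untreated 48 h livers and 7.27 at 0 h. In such bulk samples fewer cells of a type and less RNA per cell cannot be told apart.

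The largest differences belonged to kinases and cyclins that drive entry into mitosis. Cdk1, the kinase that starts mitosis, lies on chromosome 10 (ENSMUSG00000019942.13, 69335146 to 69352938, minus strand, GRCm38). Its level was 6.36 in ATRi 48 h livers, 6.08 in untreated 48 h livers and 1.52 at 0 h, a difference of 4.84 from 0 h or 28.7-fold. The single ATRi livers at 72 h had 4.43, 5.26, 5.31 and 4.62, all above the 0 h mean, and their SD of 0.45 is small beside the difference. Plk1, the polo-like kinase that controls centrosomes and exit from G2, had 5.73 in ATRi 48 h livers, 5.30 in untreated 48 h livers and 1.07 at 0 h (difference 4.66, 25.4-fold). Aurora kinase A (Aurka), which matures the spindle poles, had 5.84 in ATRi 48 h livers, 5.604 in untreated 48 h livers and 1.26 at 0 h (difference 4.59). Cyclin B2 (Ccnb2), a partner of Cdk1, had 6.43 in ATRi 48 h livers, 6.08 in untreated 48 h livers and 1.96 at 0 h, a 22.1-fold difference.

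Promoters of these 4 genes are shown because mitotic genes are known to share a pair of elements, the cell cycle homology region (CHR, TTTGAA) and the NF-Y box (CCAAT). Each sequence runs from 250 bases before to 50 bases after the transcription start, from RefSeq on GRCm38.p6, and capitals mark matches to either element on either strand.
Cdk1: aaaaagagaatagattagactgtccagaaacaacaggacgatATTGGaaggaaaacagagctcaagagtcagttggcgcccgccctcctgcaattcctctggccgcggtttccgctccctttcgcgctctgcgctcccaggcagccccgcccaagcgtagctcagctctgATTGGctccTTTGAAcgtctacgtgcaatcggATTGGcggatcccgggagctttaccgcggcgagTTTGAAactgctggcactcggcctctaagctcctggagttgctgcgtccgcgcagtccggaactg
Ccnb2: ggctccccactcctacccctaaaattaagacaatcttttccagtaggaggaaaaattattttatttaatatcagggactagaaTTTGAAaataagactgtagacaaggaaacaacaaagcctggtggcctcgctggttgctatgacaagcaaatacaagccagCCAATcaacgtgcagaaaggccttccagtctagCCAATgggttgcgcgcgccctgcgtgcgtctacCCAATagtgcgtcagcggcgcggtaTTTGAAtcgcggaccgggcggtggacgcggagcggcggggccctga
Plk1: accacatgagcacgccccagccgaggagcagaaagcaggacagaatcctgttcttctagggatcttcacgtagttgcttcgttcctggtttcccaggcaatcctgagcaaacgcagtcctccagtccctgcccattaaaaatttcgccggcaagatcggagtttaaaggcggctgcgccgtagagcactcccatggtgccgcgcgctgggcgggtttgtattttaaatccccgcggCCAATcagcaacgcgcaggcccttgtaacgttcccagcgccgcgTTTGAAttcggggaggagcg
Aurka: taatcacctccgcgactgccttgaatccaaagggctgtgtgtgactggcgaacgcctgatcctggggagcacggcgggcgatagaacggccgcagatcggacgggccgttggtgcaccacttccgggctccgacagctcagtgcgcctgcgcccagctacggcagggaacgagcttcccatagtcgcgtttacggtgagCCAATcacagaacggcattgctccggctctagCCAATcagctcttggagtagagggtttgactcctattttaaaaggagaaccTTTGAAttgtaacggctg
They lie at chr10:69352863-69353162 (Cdk1, minus strand), chr9:70421505-70421804 (Ccnb2, minus strand), chr7:122159185-122159484 (Plk1, plus strand) and chr2:172370521-172370820 (Aurka, minus strand). Cdk1 and Ccnb2 each held 2 CHR and 3 NF-Y matches, Plk1 held 1 of each, and Aurka held 1 CHR and 2 NF-Y matches. In these 4 windows a CHR match lay downstream of an NF-Y match.

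Across all mitotic kinase, cyclin B and spindle checkpoint genes the difference was broad. Of 30 measured genes in the list, 29 were above 0 and 26 were higher by 1 or more, with none lower, and the median difference was 2.80, beside -0.02 for all genes. Untreated 48 h livers gave a median of 2.66 with 26 genes higher. Birc5 (survivin) and Aurkb, members of the chromosomal passenger complex, differed by 4.42 and 3.999, and their partner Cdca8 (borealin) by 3.4. Mki67, the proliferation antigen Ki-67, differed by 4.21. Nek2, a centrosome kinase, differed by 3.86 and Pbk, a mitotic kinase, by 4.11. Cyclin B1 (Ccnb1) was near the floor at 0 h, with 3.34 in ATRi 48 h livers, 3.29 in untreated 48 h livers and 0.53 at 0 h. The spindle checkpoint genes Ttk, Bub1b and Mad2l1 differed by 2.91, 2.78 and 2.68. Aurkb has values identical to those of its neighbour Borcs6 in 2 of the 9 deposited means, so that reads of the pair may not be separated there.

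**Figure D2:**
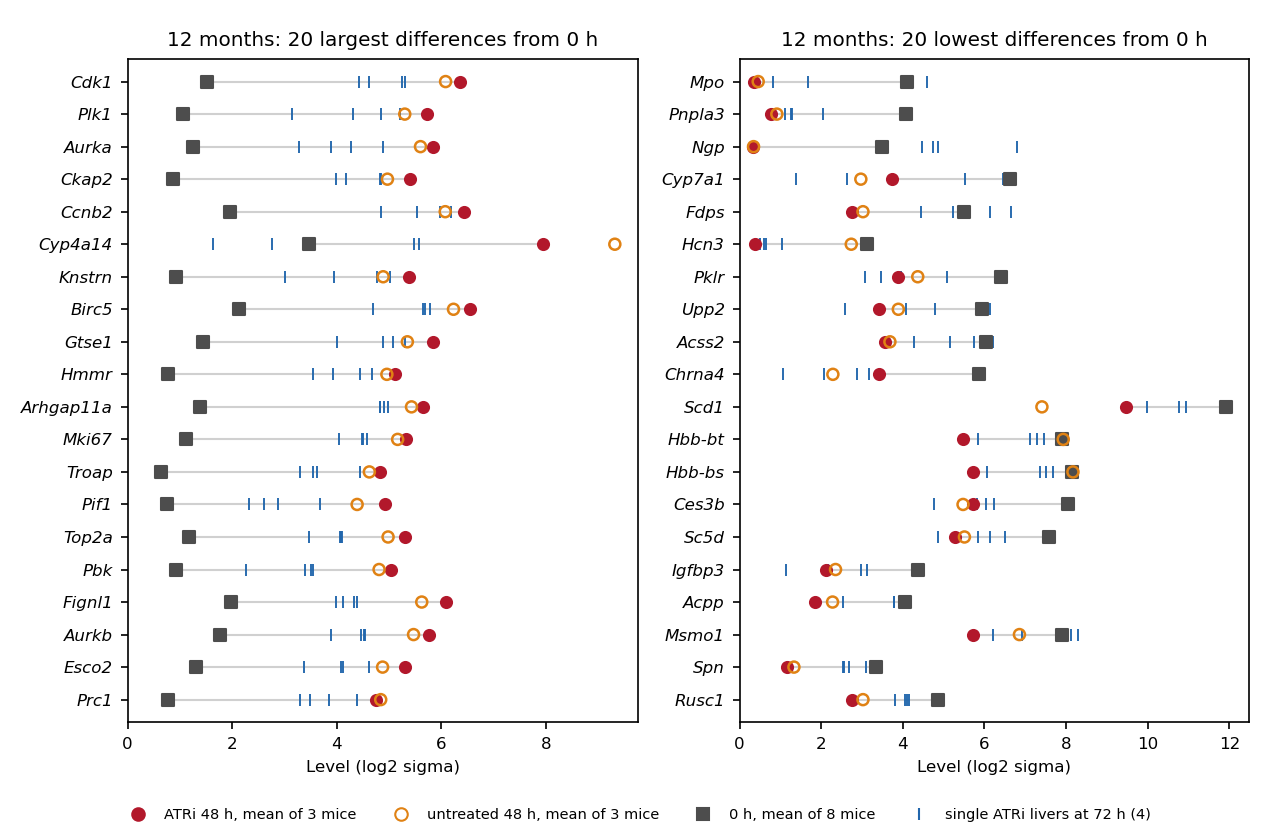
Levels (log2 sigma) of the 20 genes with the largest and the 20 with the lowest difference, with ATRi 48 h means as red dots, untreated 48 h means as open orange circles, 0 h means as grey squares and the 4 single ATRi livers at 72 h as blue ticks. On the left every red dot lies 3.99 or more above its grey square, and on the right the single livers often reach the 0 h mean, as for Ngp, Fdps and Msmo1.

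Kinesin, kinetochore, condensin and cytokinesis genes, which build and use the spindle, were higher almost throughout. Of 54 measured genes, 50 were higher by 1 or more and none lower, with a median difference of 2.48, and the same number were higher in untreated 48 h livers, whose median was 2.41. At 0 h, 37 of the 54 had a level under 1. Ckap2, a spindle-associated protein, had 5.41 in ATRi 48 h livers, 4.97 in untreated 48 h livers and 0.88 at 0 h (difference 4.53). Hmmr, which helps to position the spindle, differed by 4.35, and Troap, a spindle assembly protein, by 4.19. Prc1, which bundles microtubules of the central spindle, had 4.76 in ATRi 48 h livers, 4.84 in untreated 48 h livers and 0.77 at 0 h. Spag5 and Kif22, a kinetochore-linked spindle protein and a chromokinesin, differed by 3.91 and 3.90. In the 72 h livers the median of the list stood 1.07 to 1.63 above 0 h, less than in the 48 h mean.

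Of the 20 largest differences, 5 fell outside every list, and each of these genes has a known role in division or repair. Knstrn, a kinetochore and spindle protein, differed by 4.46, Arhgap11a, a GTPase-activating protein of dividing cells, by 4.26, and Pif1, a DNA helicase, by 4.17. Fignl1, which acts in recombination, differed by 4.11, and Esco2, which acetylates cohesin in S phase, by 3.99. Arhgap11a varied least of the 5 among the livers at 72 h (4.82, 4.99, 4.90 and 4.84, SD 0.08), all of them above its 0 h mean of 1.39.

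Genes that license origins and form the replicative helicase were higher as well, by less than the mitotic genes. Of 22 measured genes 20 were above 0, 16 were higher by 1 or more and none was lower, with a median difference of 1.56, and in untreated 48 h livers 13 were higher, with a median of 1.26. Mcm5, a subunit of the MCM helicase, had 5.69 in ATRi 48 h livers, 5.37 in untreated 48 h livers and 2.32 at 0 h (difference 3.37). Mcm3, Mcm6 and Mcm2 differed by 2.41, 2.37 and 2.26. The loading factor Cdt1 had 5.29 in ATRi 48 h livers, 4.52 in untreated 48 h livers and 2.88 at 0 h. Cdc6, its partner in loading, had 3.27 in ATRi 48 h livers, 2.44 in untreated 48 h livers and 1.01 at 0 h. Cdc45, which completes the active helicase, differed by 2.17, and Dbf4, the activator of the Cdc7 kinase, by 1.95. Mcm10 did not follow them, with 4.31 in ATRi 48 h livers, 4.32 in untreated 48 h livers and 4.55 at 0 h. In the 72 h livers the list's median was between 0.002 and 0.117 above 0 h, so small that the offset of 0.088 between deposited means and single livers matters.

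The promoter of Mcm5 is shown because licensing genes are classical E2F targets, with capitals marking matches to the E2F motifs searched, TTCCCGC and TTGGCGC, on either strand.
Mcm5: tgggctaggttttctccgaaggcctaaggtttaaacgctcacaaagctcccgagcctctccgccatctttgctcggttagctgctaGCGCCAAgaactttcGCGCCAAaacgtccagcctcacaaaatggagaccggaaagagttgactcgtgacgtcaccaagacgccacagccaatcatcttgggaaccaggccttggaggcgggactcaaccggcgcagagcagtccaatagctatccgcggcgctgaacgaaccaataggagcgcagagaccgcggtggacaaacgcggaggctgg
It lies at chr8:75109259-75109558 on the plus strand (GRCm38.p6) and held 2 E2F matches, 3 NF-Y matches and no CHR match.

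Enzymes of DNA synthesis and nucleotide supply showed the same direction. Of 28 measured genes 27 were above 0, 16 were higher by 1 or more and none lower, with a median of 1.02 in ATRi 48 h livers and the same in untreated 48 h livers, where 14 were higher. Topoisomerase IIα (Top2a) differed by 4.13. Ribonucleotide reductase, which makes deoxynucleotides, was represented by Rrm2, with 6.87 in ATRi 48 h livers, 6.83 in untreated 48 h livers and 3.76 at 0 h, and by Rrm1, which differed by 2.18. Pole, the catalytic subunit of the leading-strand polymerase, had 3.55 in ATRi 48 h livers, 3.36 in untreated 48 h livers and 1.14 at 0 h. Prim1, the primase, and Uhrf1, which links replication to DNA methylation, differed by 2.16 and 2.40. The clamp Pcna stayed just under the threshold, at 2.93 in ATRi 48 h livers, 3.02 in untreated 48 h livers and 1.98 at 0 h.

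Of 24 measured G1/S cyclins, CDK inhibitors and E2F factors, 12 were higher by 1 or more and none lower, with a median of 0.94, against 7 higher and a median of 0.71 in untreated 48 h livers. Foxm1, the transcription factor of the mitotic programme, had 4.65 in ATRi 48 h livers, 4.19 in untreated 48 h livers and 0.98 at 0 h (difference 3.67). Mybl1, a MYB factor, differed by 3.15. Cyclin D1 (Ccnd1), the early G1 cyclin of regenerating liver, had 3.73 in ATRi 48 h livers, 3.27 in untreated 48 h livers and 1.37 at 0 h. Cyclin E1 (Ccne1), the pocket protein Rbl1 and the factors E2f7 and E2f1 differed by 1.76, 1.83, 1.47 and 1.46. E2f8 went the other way, by -0.69, but varied widely among the livers at 72 h (SD 1.62). The CDK inhibitor Cdkn1b (p27) had 1.67 in ATRi 48 h livers, 1.202 in untreated 48 h livers and 0.44 at 0 h, with an SD of 0.90. Cyclin A2 shares its entry with Exosc9, so that the 1.99 of the joined entry cannot be given to Ccna2 alone.

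**Figure D3:**
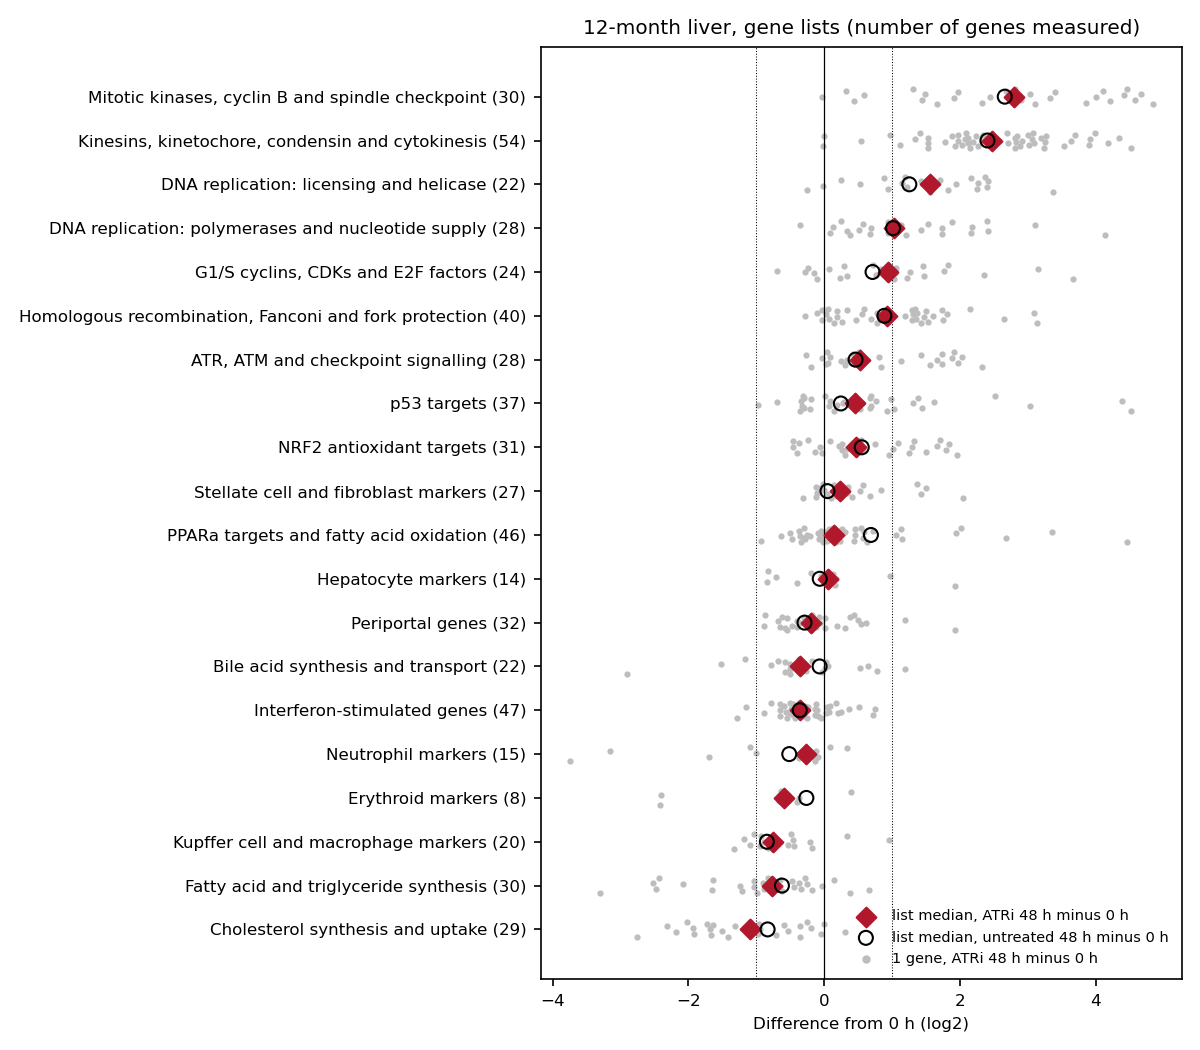
Difference from 0 h (log2) of each measured gene in 20 of the lists (grey points, ATRi 48 h minus 0 h), with list medians for ATRi 48 h (red diamonds) and untreated 48 h (open circles). Division lists lie on the right, with medians up to 2.80, cholesterol synthesis on the left at -1.09, and the 2 medians of a list are furthest apart for PPARα targets (0.15 for ATRi 48 h and 0.69 for untreated 48 h).

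Several effector genes of the inhibited pathway were higher, while the kinase itself and other members stayed nearer to 0 h. Of 28 measured ATR, ATM and checkpoint genes, 11 were higher by 1 or more and none lower, in ATRi 48 h and in untreated 48 h livers alike, with medians of 0.54 and 0.46. Among the 11, Cdc25b, Cdc25c, Wee1, Rpa2, Timeless, Tipin and Topbp1 also belong to the mitotic, polymerase or licensing lists, so they are no separate response. Rad17, Nbn, Hus1, Rad1 and Rnf8 differed by 0.02, 0.06, 0.25, 0.30 and -0.26. Atr, the target of the inhibitor, had 2.98 in ATRi 48 h livers, 3.02 in untreated 48 h livers and 2.47 at 0 h (difference 0.51, SD of the 72 h livers 0.16). Its partner Atrip had 4.74 in ATRi 48 h livers, 4.43 in untreated 48 h livers and 4.65 at 0 h. RNA levels say nothing of the kinase's activity. Of the activators, Topbp1 differed by 1.55 and Etaa1 by 0.55. Claspin (Clspn), which brings Chk1 to ATR, had 2.69 in ATRi 48 h livers, 2.58 in untreated 48 h livers and 0.66 at 0 h. Chek1, which encodes Chk1, had 3.45 in ATRi 48 h livers, 3.21 in untreated 48 h livers and 1.71 at 0 h. Wee1, which restrains Cdk1, had 3.61 in ATRi 48 h livers, 3.29 in untreated 48 h livers and 1.69 at 0 h. The opposing phosphatases Cdc25b and Cdc25c differed by 2.33 and 1.98, so genes that restrain and that release Cdk1 were both higher. Chek2, the effector kinase of ATM, differed by 1.42, and Atm itself by 0.44.

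Recombination, Fanconi and fork protection genes were higher in 19 of 40 measured members and lower in none, with a median of 0.92, and in 17 members with a median of 0.89 in untreated 48 h livers. Ube2t, the ubiquitin-conjugating enzyme of the Fanconi pathway, differed by 3.09 and its substrate Fancd2 by 1.75. Brca1 had 2.32 in ATRi 48 h livers, 1.94 in untreated 48 h livers and 0.81 at 0 h, while Palb2 and Brca2, which act with it, differed by 1.60 and 1.43. Exo1, a resection nuclease, and Tonsl, which acts at damaged forks, differed by 1.81 and 1.73. Hells, a chromatin remodeller, and Fancb, of the Fanconi core complex, differed by 2.65 and 2.15.

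Of 37 measured p53 targets, 9 were higher by 1 or more and none was lower, with a median of 0.45, against 6 higher, 1 lower and a median of 0.25 in untreated 48 h livers. The top 2 of the list, Ckap2 and Gtse1 (differences of 4.53 and 4.39), are also mitotic genes. Cdkn1a (p21), the p53 target that inhibits CDKs, had 8.23 in ATRi 48 h livers, 8.20 in untreated 48 h livers and 5.71 at 0 h, a difference of 2.52. Phlda3, an inhibitor of AKT, had 6.27 in ATRi 48 h livers, 5.55 in untreated 48 h livers and 3.23 at 0 h. The death receptor gene Tnfrsf10b had 2.49 in ATRi 48 h livers, 1.83 in untreated 48 h livers and 0.86 at 0 h. Ak1, an adenylate kinase, stood further from the untreated livers, with 3.08 in ATRi 48 h livers, 1.95 in untreated 48 h livers and 1.70 at 0 h. Mdm2, which encodes the ubiquitin ligase of p53, had 5.64 in ATRi 48 h livers, 5.59 in untreated 48 h livers and 4.65 at 0 h, and Bax, the death effector, differed by 0.92. Bbc3 (PUMA), another death gene, had 3.20 in ATRi 48 h livers, 2.22 in untreated 48 h livers and 3.56 at 0 h.

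BCL2 family and death receptor genes were close to 0 h, with a median of -0.10, none of 28 higher and 1 lower. That gene was Bmf, a BH3-only death factor, with 2.79 in ATRi 48 h livers, 2.48 in untreated 48 h livers and 4.30 at 0 h.

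The same motifs were counted in all promoters. RefSeq promoters were found for 8234 of the 10612 single-name genes (77.6%), of which 14.7% held a CHR match, 42.6% an NF-Y box and 13.1% an E2F match. Of the 303 genes with a promoter that were higher by 1 or more, 32.7% held a CHR match, 59.7% an NF-Y box and 25.7% an E2F match. Of the 138 lower genes 15.9% held a CHR match, 50.7% an NF-Y box and 8.7% an E2F match. NF-Y boxes were also above the share of all genes in p53 targets (66.7% of 30) and PPARα targets (57.6% of 33). CHR matches were found in 73.9% of 46 kinesin and kinetochore genes and 45.8% of 24 mitotic kinase genes, but in 13% of 23 polymerase genes. E2F matches were found in 52.9% of 17 licensing genes, 52.2% of the polymerase genes and 42.9% of 28 recombination genes, and in 16.7% of the mitotic kinase genes. These are letters in a window and not binding sites, and the genes were chosen with their differences known.

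**Figure D4:**
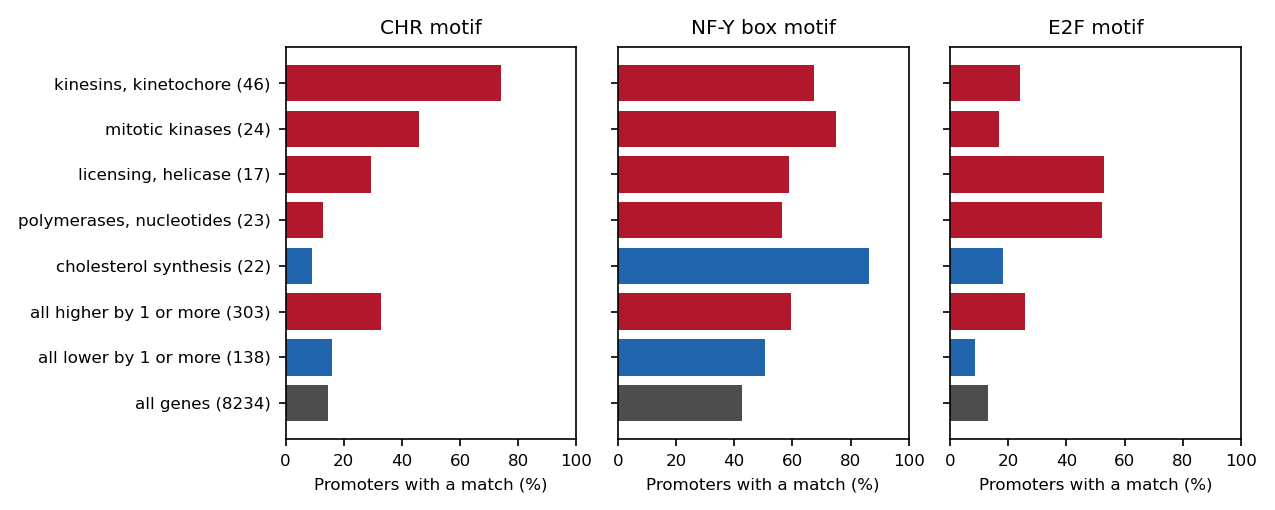
Percent of promoters (250 bases before to 50 after the start) that hold each motif, by gene group, with red bars for groups that were higher, blue bars for lower groups and grey for all genes. CHR matches reach 73.9% in kinesin and kinetochore genes and E2F matches 52.9% in licensing genes, beside 14.7% and 13.1% of all genes.

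Among the lists, cholesterol and fatty acid synthesis held the most lower genes, though 108 of the 181 lower single-name genes are in no list. In cholesterol synthesis and uptake, 27 of 29 measured genes were below 0, 16 were lower by 1 or more and none was higher, with a median of -1.09, against 10 lower and a median of -0.83 in untreated 48 h livers. Hmgcs1, which commits acetyl units to the pathway, had 6.80 in ATRi 48 h livers, 7.55 in untreated 48 h livers and 8.46 at 0 h. Sqle, which oxidises squalene, had 5.17 in ATRi 48 h livers, 6.11 in untreated 48 h livers and 7.10 at 0 h. In the later steps Sc5d, Msmo1, Lss and Dhcr7 differed by -2.31, -2.18, -1.91 and -1.68. Cyp51, the lanosterol demethylase, had 5.82 in ATRi 48 h livers, 7.16 in untreated 48 h livers and 7.54 at 0 h. Fdps, the farnesyl diphosphate synthase, had 2.75 in ATRi 48 h livers, 3.02 in untreated 48 h livers and 5.50 at 0 h, but its neighbour Rusc1 has the same 2.75 and 3.02, so that the reads of the pair may not be separated. Srebf2, the pathway's transcription factor, differed by -0.71. The 4 livers at 72 h disagreed on this list, with medians of 0.38, 0.18, -0.50 and -0.79 from 0 h.

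The promoter of Hmgcs1 is shown as that of a known SREBP target, with capitals marking NF-Y boxes and the sterol regulatory element searched as TCACNCCAC, on either strand.
Hmgcs1: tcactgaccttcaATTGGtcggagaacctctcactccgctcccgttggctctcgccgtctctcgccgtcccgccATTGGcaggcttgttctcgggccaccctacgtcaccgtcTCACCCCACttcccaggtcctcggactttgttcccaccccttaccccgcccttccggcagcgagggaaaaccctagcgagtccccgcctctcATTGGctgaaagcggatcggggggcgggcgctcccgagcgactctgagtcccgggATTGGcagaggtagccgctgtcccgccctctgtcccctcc
It lies at chr13:119690101-119690400 on the plus strand (GRCm38.p6) and held 1 sterol element and 4 NF-Y boxes. An NF-Y box was found in 86.4% of 22 cholesterol gene promoters, beside 42.6% of all promoters. A sterol element was found in 1 of the 22 (4.55%), that of Hmgcs1 itself, beside 1.6% of all promoters. As Hmgcs1 was chosen as a known target, that share says nothing of the list.

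Of 30 measured fatty acid and triglyceride synthesis genes, 11 were lower by 1 or more and none was higher, with a median of -0.77, and 11 were lower in untreated 48 h livers too, with a median of -0.62. Pnpla3, a lipid droplet lipase that follows feeding, had 0.78 in ATRi 48 h livers, 0.92 in untreated 48 h livers and 4.08 at 0 h (difference -3.30). All 4 livers at 72 h (1.26, 2.04, 1.29 and 1.11) lay below its 0 h mean. Pklr, the liver pyruvate kinase, differed by -2.52, Acss2, which makes acetyl-CoA from acetate, by -2.47, Acacb by -2.08 and Acly by -1.64. Fasn, the fatty acid synthase, had 8.03 in ATRi 48 h livers, 7.44 in untreated 48 h livers and 9.69 at 0 h. Scd1, the stearoyl-CoA desaturase, had 9.47 in ATRi 48 h livers, 7.41 in untreated 48 h livers and 11.91 at 0 h, so that its difference from 0 h was -2.44 with ATRi and -4.504 without.

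PPARα targets and fatty acid oxidation genes were split, with 8 of 46 measured genes higher by 1 or more, none lower and a median of 0.15, against 15 higher and a median of 0.69 in untreated 48 h livers. Cyp4a14, a fatty acid hydroxylase on chromosome 4 (115486200 to 115496142), had 7.94 in ATRi 48 h livers, 9.32 in untreated 48 h livers and 3.47 at 0 h. Its levels in the single livers at 72 h ran from 1.63 to 5.57 (SD 1.98), the 0 h mean lay inside that range, and the 3-month 0 h mean was 8.49. Its relative Cyp4a31 had 4.39 in ATRi 48 h livers, 5.39 in untreated 48 h livers and 1.72 at 0 h. Cyp4a10 had 1.30 in ATRi 48 h livers, 4.28 in untreated 48 h livers and 1.28 at 0 h, the widest gap between the arms at 48 h. The acyl-CoA thioesterases Acot1, Acot3 and Acot2 differed by 3.36, 2.02 and 1.94, against 3.17, 2.90 and 2.94 in untreated 48 h livers. Both families hold near-identical genes on which reads could be shared. Pdk4, which blocks use of glucose in mitochondria, had 3.21 in ATRi 48 h livers, 5.78 in untreated 48 h livers and 3.58 at 0 h. Angptl4, an inhibitor of lipoprotein lipase, had 7.11 in ATRi 48 h livers, 8.17 in untreated 48 h livers and 6.47 at 0 h. Ehhadh, of peroxisomal oxidation, differed by 1.06, Cpt1a, the gate to mitochondria, by 0.28, and Ppara by -0.30.

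Lipid droplet and uptake genes had a median of -0.07, with Apoa4, an apolipoprotein of triglyceride-rich particles, standing apart at 13.41 in ATRi 48 h livers, 13.36 in untreated 48 h livers and 10.04 at 0 h (difference 3.37). Cebpa, the transcription factor that restrains hepatocyte growth, had 7.88 in ATRi 48 h livers, 6.53 in untreated 48 h livers and 8.39 at 0 h. Bile acid genes had a median of -0.36, with 1 of 22 measured genes higher and 3 lower. Cyp7a1, which catalyses the limiting step from cholesterol to bile acids, had 3.73 in ATRi 48 h livers, 2.97 in untreated 48 h livers and 6.63 at 0 h. The livers at 72 h ranged from 1.38 to 6.46 (SD 2.39), so its difference of -2.91 is only a little over the spread between single mice. Slc10a1, the bile acid uptake transporter, had 8.27 in ATRi 48 h livers, 8.64 in untreated 48 h livers and 9.78 at 0 h, and the exporter subunit Slc51b differed by 1.198.

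Other hepatocyte functions stayed near their 0 h levels. The medians were -0.07 for 27 pericentral genes, -0.19 for 32 periportal genes, -0.07 for 31 secreted proteins, -0.14 for 25 hepatocyte transcription factors and -0.13 for 67 P450 and conjugation enzymes. None of the secreted proteins was higher or lower by 1, and Hnf4a, the master regulator of hepatocyte identity, differed by 0.18. Tat, a periportal enzyme of tyrosine breakdown, was an exception, with 7.58 in ATRi 48 h livers, 7.64 in untreated 48 h livers and 5.66 at 0 h. Cyp3a11, a drug-metabolising P450, differed by 1.49 and Foxa1, a pioneer factor, by -1.11. Ces3b, a carboxylesterase, differed by -2.32, with all 4 livers at 72 h below its 0 h mean of 8.04.

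Growth hormone and insulin genes had a median of -0.22, with 3 of 31 measured genes lower and none higher. These were the binding proteins Igfbp3 (difference -2.26) and Igfbp2 (-1.36) and the repressor Bcl6 (-1.12). Of 26 male-biased liver genes 2 were higher and 6 lower, and of 13 female-biased genes 3 were higher and 1 lower, beside 3.53% higher and 1.67% lower of all genes. The highest differences of these lists, 1.84 and 2.02, equal those of Gstp1 and Acot3, described with the NRF2 and PPARα targets. Of the 13 female-biased genes 8 had a 0 h level under 1. The counts therefore give no pattern of sex bias. Of 20 clock genes, Usp2 was higher by 1.98 and Nr1d1 and Tsc22d3 differed by -1.79 and -1.69. The hour of day at which livers were taken is not given in the labels.

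NRF2 targets, which defend against oxidants, were higher in 11 of 31 measured genes and lower in none, with a median of 0.47 against 0.56 in untreated 48 h livers, where 9 were higher. Nqo1, a quinone reductase, had 5.997 in ATRi 48 h livers, 5.19 in untreated 48 h livers and 4.04 at 0 h. Gstp1, a glutathione transferase, had 6.13 in ATRi 48 h livers, 7.68 in untreated 48 h livers and 4.28 at 0 h, and its neighbour Gstp2 tracked it so closely that reads of the pair may be shared. Srxn1, which repairs peroxiredoxins, differed by 1.26, and Hmox1, the haem oxygenase, by 0.95.

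Stress lists lay nearer to 0 h. Of 18 measured ER chaperone genes none passed 1, with a median of 0.25, and Hyou1, an ER chaperone, had 8.25 in ATRi 48 h livers, 7.47 in untreated 48 h livers and 7.32 at 0 h. Of 23 genes of the ATF4 response 2 were higher, Mthfd2 by 1.45 and Psat1 by 1.17, both in one-carbon and serine metabolism. Heat shock genes had a median of 0.05, ribosome biogenesis genes 0.13 and ribosomal protein genes -0.05. Among 26 immediate early genes Sik1, Klf4 and Klf6 were higher by 1.51, 1.45 and 1.29, while Egr1, Klf10 and Jun differed by -1.46, -1.27 and -1.10. Of 21 senescence-associated genes 4 were higher and 1 lower, the higher ones including Cdkn1a (2.52), Mmp2 (1.15) and Lmnb1 (1.06). The list does not separate genes raised from genes lowered in senescence, so these counts give no direction for it. EGF and HGF receptors with their ligands had a median of 0.05, with the activin subunit Inhbb alone past 1, at 1.35. Of 25 replication-dependent histones 6 were measured, with a median of 0.09, in a library of polyadenylated RNA.

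Immune gene lists had medians near or below 0, and markers of immune cells moved with them. Of 44 inflammation and chemokine genes 6 were lower and none higher, with a median of -0.05, against 9 lower and a median of -0.30 in untreated 48 h livers. The cytokine Il1b had 2.80 in ATRi 48 h livers, 2.64 in untreated 48 h livers and 4.41 at 0 h, and the receptor Tlr9 differed by -1.71. Among 47 interferon-stimulated genes 36 were below 0, with a median of -0.36, and Ifi44 and Ifit3 differed by -1.29 and -1.15, with SDs of 1.36 and 1.40 among the livers at 72 h. Of 15 antigen presentation genes Cd74, the class II chaperone, differed by -1.73 and H2-Eb1 by -1.62. Acute phase genes had a median of 0.09, with Orm3 and Orm1 at -1.42 and -1.40 and the metallothionein Mt1 at 1.37.

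Of 20 Kupffer cell and macrophage markers 18 were below 0, 4 were lower by 1 or more and none was higher, and their summed level was 64.7 in ATRi 48 h livers, 62.4 in untreated 48 h livers and 76.9 at 0 h. Csf1r, the macrophage growth factor receptor, had 4 in ATRi 48 h livers, 3.95 in untreated 48 h livers and 5.32 at 0 h. Of 15 T and NK cell markers 14 were below 0, with sums of 10.3 in ATRi 48 h livers, 12 in untreated 48 h livers and 18.3 at 0 h, and Gzma was at the lowest value with ATRi. Of 10 B cell markers 8 were below 0, with sums of 7.6 in ATRi 48 h livers, 8.6 in untreated 48 h livers and 12.2 at 0 h. Many of these levels were low: 6 of the 10 B cell markers were under 1 at 0 h and 8 with ATRi. Of the 15 T and NK cell markers, 5 were under 1 at 0 h and 12 with ATRi. Genes at the lowest value in both groups had a difference of -0.13. The lowest B cell difference, -1.66, equals that of Cd79a, whose reads may be shared with its neighbour Rps19. Of 23 sinusoidal endothelial markers 16 were below 0 and none passed 1, with sums of 67.3 in ATRi 48 h livers, 64.7 in untreated 48 h livers and 71.8 at 0 h. Over all genes 47.8% were above 0, and counts of markers below 0 are to be read beside that share. The part of cell numbers in the immune gene differences was not tested.

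Of 15 neutrophil markers 13 were below 0 and 5 were lower by 1 or more, as were 5 in untreated 48 h livers, and their summed level was 25.4 in ATRi 48 h livers, 22.8 in untreated 48 h livers and 37.4 at 0 h. They held the lowest difference of all genes. Mpo, myeloperoxidase of neutrophil granules, had 0.35 in ATRi 48 h livers, 0.46 in untreated 48 h livers and 4.09 at 0 h (difference -3.74). Ngp, another granule protein, had 0.33 in ATRi 48 h livers, 0.34 in untreated 48 h livers and 3.48 at 0 h, and Ltf, lactoferrin, differed by -1.69. The other markers past the threshold were Lyz2 (-1.09) and Ncf1 (-1.004), a subunit of the phagocyte oxidase. At 72 h the 12-month means of Mpo were 3.54 with ATRi and 4.07 without, and those of Ngp 5.70 with ATRi and 5.19 without. The single ATRi livers at 72 h ran from 0.83 to 4.59 for Mpo and from 4.47 to 6.80 for Ngp. In 3-month mice at 0 h Mpo had 0.467 and Ngp 0.455. Ly6g was at the lowest value in ATRi 48 h livers, Cxcr2 differed by -0.27 and S100a8 by -0.33. How many of the 8 mice at 0 h carry the granule transcripts cannot be read from their mean. The mouse numbers at 0 h recur at 72 h and not at 48 h, so time and set of mice cannot be told apart here.

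Of 27 stellate cell and fibroblast markers 4 were higher by 1 or more, against none in untreated 48 h livers, and the summed level was 78.2 in ATRi 48 h livers, 70.0 in untreated 48 h livers and 67.3 at 0 h. All 4 encode fibrillar collagen or its crosslinking enzyme. Col1a1 had 4.20 in ATRi 48 h livers, 2.85 in untreated 48 h livers and 2.15 at 0 h, Col3a1 differed by 1.497, Col1a2 by 1.43 and the lysyl oxidase Lox by 1.38. Col1a1 varied with an SD of 1.09 among the livers at 72 h, close to its gap of 1.36 between the arms at 48 h. The quiescent stellate markers Lrat and Reln stayed at -0.12 and -0.02. Of 9 cholangiocyte markers 1 was higher, Ddr1 by 1.02, while 4 were above 0 and 5 below, with a median of -0.01. In the 4 livers at 72 h the median of that list ran from -0.222 to 1.035 from 0 h.

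Of 8 erythroid markers 2 were lower than at 0 h by 1 or more, the neighbouring beta globin genes, and these 2 also differed by 1 or more between the arms at 48 h. Beta globin Hbb-bt had 5.48 in ATRi 48 h livers, 7.93 in untreated 48 h livers and 7.90 at 0 h, and Hbb-bs had 5.73 in ATRi 48 h livers, 8.17 in untreated 48 h livers and 8.13 at 0 h. The pair lie side by side and their values move together, so they count as 1 signal. Alas2, the erythroid haem synthesis enzyme, had 4.98 in ATRi 48 h livers, 5.11 in untreated 48 h livers and 5.61 at 0 h, and Hba-a2 and Slc4a1 were among those at the lowest value with ATRi. Of the 8 markers 3 had a level under 1 with ATRi, and 3 had a level under 1 at 0 h already. The summed level of the 8 erythroid markers was 21.7 in ATRi 48 h livers, 27.4 in untreated 48 h livers and 28.8 at 0 h. How far blood left in the samples adds to this was not tested.

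Set directly against each other, the arms at 48 h differed in few genes. In ATRi 48 h livers 36 genes (0.324%) were higher and 28 (0.252%) lower than in untreated 48 h livers, and the median difference was -0.001. In limma with the borrowed spread none was higher and 2 were lower at an adjusted p under 0.05, while 707 genes passed an unadjusted p of 0.05. The 2 genes were Cyp4a10, at -2.98, and Hcn3, at -2.35, both with an adjusted p of 0.03968. Both genes lay at or near the lowest value in the livers that supply the spread: Cyp4a10 had 0.500, 0.826, 0.514 and 0.993 and Hcn3 had 0.644, 0.588, 0.514 and 1.044, in tables whose lowest values were 0.500, 0.272, 0.514 and 0.548. Their SDs of 0.24 there do not measure the spread at their higher levels at 48 h, so these 2 calls carry no weight. Hcn3, a pacemaker channel gene, had 0.39 in ATRi 48 h livers, 2.74 in untreated 48 h livers and 3.13 at 0 h, and it adjoins Pklr on chromosome 3, which differed by -2.52 from 0 h. The untreated 72 h mean of Hcn3 was 0.258, also low with no inhibitor. The fit has 3 residual degrees of freedom, all from the 4 livers at 72 h.

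**Figure D5:**
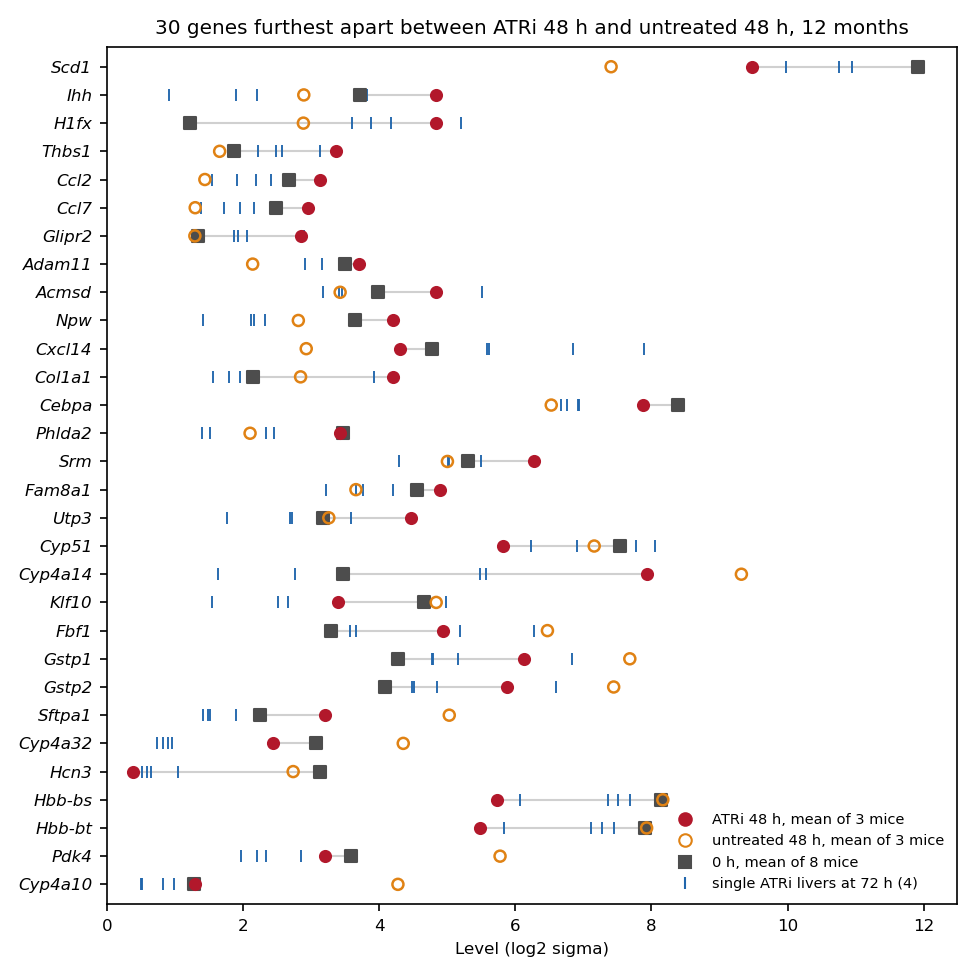
Levels (log2 sigma) of the 30 genes furthest apart between ATRi 48 h means (red dots) and untreated 48 h means (open orange circles), with 0 h means (grey squares) and the 4 single ATRi livers at 72 h (blue ticks). For Cyp4a10 and Pdk4 the red dot lies beside the 0 h mean and the open circle above it, and for Hbb-bt and Hbb-bs the open circle lies on the 0 h mean.

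PPARα targets were the list with the most genes apart between the arms. Of 46 genes 41 were lower with ATRi than without, 8 of them by 1 or more, with a median of -0.43, beside -0.001 for all genes. The 8 included Cyp4a10, Pdk4, Cyp4a32, Cyp4a14 and the carnitine transporter gene Slc22a5, which had 3.44 in ATRi 48 h livers, 4.64 in untreated 48 h livers and 2.32 at 0 h. Of the 29 cholesterol genes 22 were lower with ATRi than without, with a median of -0.28, led by Cyp51 (-1.34) and Msmo1 (-1.13). Scd1 was the gene most above untreated livers, by 2.07. The chemokine Ccl2 had 3.14 in ATRi 48 h livers, 1.44 in untreated 48 h livers and 2.68 at 0 h, and its neighbour Ccl7 had 2.96 in ATRi 48 h livers, 1.30 in untreated 48 h livers and 2.49 at 0 h. The linker histone gene H1fx had 4.83 in ATRi 48 h livers, 2.89 in untreated 48 h livers and 1.22 at 0 h, and Ihh, a hedgehog ligand, had 4.84 in ATRi 48 h livers, 2.89 in untreated 48 h livers and 3.72 at 0 h. In the division lists no gene differed by 1 between the arms, and the medians with ATRi over those without were 0.27 for mitotic kinases, 0.15 for kinesins, 0.29 for licensing and 0.19 for polymerases. These small shifts were one-sided too. With ATRi, 27 of 30 mitotic kinase, 45 of 54 kinesin, 19 of 22 licensing and 23 of 28 polymerase genes were higher than without. Of 27 pericentral genes 22 were lower with ATRi than without, with a median of -0.21. Among the 4 livers at 72 h the SDs were 0.24 for Cyp4a10, 0.38 for Pdk4, 0.80 for Scd1 and 0.83 for Cyp51.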

How the data were processed

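RNA levels were taken from the deposited log2 values, which the authors give per gene as sigma in tables without a header. The 7th column of each table is read as the authors' group mean, and the 9th, where present, as the value of a single liver. Per the submitters' processing notes the genome builds were GRCm38 and mm10. The aligner, the counting method and the definition of sigma are not given in the sources used here, depth is unknown, and the number of mice limits precision. Groups came from the sample labels, and nothing in them says more of the mice than their numbers.

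Differences were computed as ATRi 48 h minus 0 h with Python 3.11.15, pandas 2.3.3 and numpy 2.4.6, with no filter or rescaling, and called at 1 with no test. As an alternative, limma 3.58.1 in R 4.3.3 took the spread from the 4 single livers, each mean weighted by its number of mice. On simulated data for this comparison (11119 genes) the share of changed genes found was 50.8% for a change of 1 and 85.6% for a change of 2, with 2.99% false calls and 0 calls without changes. The simulated noise of every group followed each gene's SD in the 4 livers at 72 h, as the fit assumes. These shares therefore cannot show how the fit does if livers at 0 h or 48 h varied otherwise. The p-values of the fit measure only the spread between those 4 livers. Gene positions are from GENCODE M21, which matched 10409 of 10612 single-name genes (98.1%), and promoters from RefSeq.

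The genes, lists and tests were chosen with earlier results of these data known. The text names 20 genes at either end of the differences, among single-name entries that are not predicted or clone-named, and up to 8 members of each list by size of difference, plus members needed to state a role. Some further genes, described as the arms are compared, were chosen after their values were seen. The 507 entries that join several gene names stayed in the counts over all genes and out of the lists. Rescaling, a filter on low levels, an added pseudocount, other thresholds and leaving out joined entries were tried. The values of some list members are not reported here.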

Additional observations from a re-analysis of the deposited data

Results flagged for a closer look

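Among the 40 genes named for their largest differences, 6 had a single ATRi liver at 72 h that stood apart from the other 3 by Dixon's criterion at 95%, which chance meets in about 1 of 20 genes. In 5 of the 6 it was the same liver, replicate M545, with the lowest value: 4.69 for Birc5, 3.46 for Top2a, 2.27 for Pbk, 3.89 for Aurkb and 2.53 for Acpp. For Ngp the liver M546 was highest, at 6.80.

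Between the arms at 48 h limma with the borrowed spread (Benjamini-Hochberg adjusted p of 0.03968) singled out Hcn3, with ATRi 48 h minus untreated 48 h at -2.35, and Cyp4a10, at -2.98. Both genes were at or near the lowest value in the 4 livers at 72 h that supply the spread, so their SDs do not apply to their 48 h levels and the calls are no test of a difference.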

How the results depend on the processing

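No paired analysis was possible because each group has only its deposited mean, and leaving out single mice could not be run for the same reason. The 392 higher and 186 lower genes became 657 and 439 by limma with the borrowed spread, 912 and 642 at a threshold of 0.58, and 223 and 64 at 1.5. Centring, quantile scaling, a level filter of 1, 1 added to the linear values and leaving out joined entries gave 327 to 402 higher and 142 to 216 lower genes. Of 46 list medians none that passed 1 changed sign. Quantile scaling gave 1.49 for licensing, 0.86 for G1/S and -0.10 for hepatocyte markers. The level filter gave 1.04 for G1/S, 0.62 for p53 targets, -0.33 for lipid droplets, -0.55 for male-biased and 0.35 for female-biased genes, -0.084 for antigen presentation, 0.15 for ATF4, 0.14 for ribosomal proteins and -0.77 for B cells. With 1 added to the linear values the medians were 1.35 for licensing, 0.77 for G1/S, 2.35 for mitotic kinases, 2.09 for kinesins, 0.48 for ATR and ATM, 0.76 for recombination, -0.19 for antigen presentation, -0.34 for T and NK cells and -0.20 for B cells. Medians near 0 changed sign for EGF and HGF (-0.01, quantile), inflammation (0.004, filter), ribosomal proteins (0.01, quantile), cholangiocytes (0.003, centred; 0.27, filter) and hepatocytes. Of 355 named genes only Fga changed sign, from 0.37 to -0.09 under quantile scaling. With 1 added to the linear values, 64 of the 355 moved by more than their SD among the 72 h livers, and shifts ran from -0.66 to 0.75. Under quantile scaling 4 moved by more than that SD. The cause of these shifts was not tested.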

Other observations

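Outside every list, further genes of S phase chromatin and of mitosis were among the higher ones, chosen here after their values were seen. The histone chaperone Asf1b had 4.93 in ATRi 48 h livers, 4.17 in untreated 48 h livers and 1.66 at 0 h, and Chaf1a, of the chromatin assembly factor, had 3.93 in ATRi 48 h livers, 3.38 in untreated 48 h livers and 1.58 at 0 h. Dtl, which marks Cdt1 for destruction after origins have fired, had 3.49 in ATRi 48 h livers, 3.10 in untreated 48 h livers and 0.78 at 0 h. Traip, a ubiquitin ligase of the replisome, differed by 2.42 and Cdca5 (sororin), which stabilises cohesin, by 3.01. Mfsd2a, a lysolipid transporter that liver makes on fasting, had 5.82 in ATRi 48 h livers, 6.33 in untreated 48 h livers and 3.21 at 0 h.

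On the lower side, Txnip and Arrdc3, arrestin-like genes that respond to glucose and nutrients, had 6.24 and 4.90 in ATRi 48 h livers, 7.39 and 4.32 in untreated 48 h livers, and 8.05 and 6.82 at 0 h. Esm1, an endothelial proteoglycan gene, had 0.58 in ATRi 48 h livers, 0.40 in untreated 48 h livers and 2.63 at 0 h. Other genes outside the lists on that side were Spn, which encodes leukosialin, at -2.17 and Coro1a, an actin regulator of leukocytes, at -1.29. Upp2 and Chrna4, also in no list, were among the 20 lowest. Upp2 had 3.43 in ATRi 48 h livers, 3.89 in untreated 48 h livers and 5.94 at 0 h. Chrna4 had 3.41 in ATRi 48 h livers, 2.29 in untreated 48 h livers and 5.86 at 0 h. Their SDs among the livers at 72 h were 1.48 and 0.94. Of 3179 pairs of genes within 3 bins of 10000 bases, 32 passed 1 in the same direction, 18 of them higher and 14 lower. In 12 of these the gap between the neighbours had an SD under 0.2 across the 9 means, among them Hbb-bt with Hbb-bs, Gstp1 with Gstp2, Tspyl1 with Tspyl4 and Rps19 with Cd79a, so such pairs may hold the same reads.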
